A study of Mus musculus with 2 samples.

Results

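Long intergenic noncoding RNA (lincRNA) genes are transcribed into RNAs longer than the small RNA classes, are annotated without a protein-coding frame and are annotated as lying apart from protein-coding genes. The 80 autosomal lincRNA genes described here were those with a mean expected count of 100 or more over both heart libraries, out of 2134 autosomal lincRNA genes in the tables and 43346 mouse gene rows in all. The type was taken from GENCODE release M21, and the imprinted genes H19, Meg3, Rian and Mirg were left out by rule. An expected count is the number of reads the authors' model assigned to a gene, and it is not whole where reads were divided between genes. The genes were thus chosen by their measured counts, so their levels are given as a description without a test.

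Total RNA sequencing covered 2 heart libraries of 1 group, from B6NCrl embryos collected on day 11.5 of gestation, with no other genotype, treatment or age. Both were pools of male and female embryos. The labels give 109 embryos for replicate 1 and no number for replicate 2, and both pools carry 1 donor identifier. The labels number the libraries as biological replicates 1 and 2. A difference between the libraries may be technical or may lie between the pools, and these cannot be told apart here. A p-value between the libraries covers counting error only and measures no spread between samples. Each library started from 10 ng of RNA with spike-ins, with a general SmartSeq protocol attached.

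Expected counts of mouse genes summed to 34447169 in replicate 1 and 25261719 in replicate 2. The 6 heart muscle markers summed to 22783 and 23882 TPM (a level corrected for transcript length and library total). All 7 liver markers were called higher in replicate 1 (exact binomial test of the counts, with a fold of at least 2 and an adjusted p below 0.05), with summed levels of 183.6 TPM against 34.5, of which Afp gave 102.1 and 16.3 and Alb 13.6 and 2.37. Of all genes tested, 3.32% were called in that direction. Of 6 epithelium markers 4 were tested and 2 were called higher in replicate 1, Nkx2-1 with 74 and 8 reads and Foxa2 with 30 and 5. In these bulk libraries, fewer cells of a type and less RNA per cell cannot be told apart.

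Some lincRNAs act in the nucleus as scaffolds for bodies rich in RNA-binding proteins, others bind proteins or miRNAs in the cytoplasm, and others are made mainly as precursors whose introns or exons release small RNAs. Many are transcribed from promoters shared with a protein-coding gene on the other strand, and some carry short reading frames that were found to be translated only after annotation. In the developing heart, lincRNAs next to cardiac transcription factor genes have been studied as local regulators.

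Few lincRNA genes were well covered. Of the 2134, 1181 were listed at 0 in both libraries, 347 had a mean count of 10 or more, and 9 of the 80 had 1000 or more. A further 7 lay between 500 and 1000, 28 between 200 and 500 and 36 between 100 and 200. Just inside the minimum were Gm26742 with a mean count of 100, Trp53cor1 with 102.5 and D130017N08Rik with 106.5. Just outside were C920006O11Rik with 99.5, Lppos with 98.4 and 4732487G21Rik with 98.4.

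The median level of the 80 genes was 7.26 TPM in replicate 1 and 6.01 TPM in replicate 2. Among the 11144 autosomal protein-coding genes with the same count minimum, the median was 16.9 and 17.6 TPM. A level of 1 TPM or more in both libraries was reached by 78 of the 80, 10 TPM by 23 and 100 TPM by 5. The SD over the mean of the 2 libraries had a median of 12.9%, against 7.32% for the protein-coding genes. Beyond the minimum the sets were not matched on counts, and the part of counting error in this difference was not tested. In the order of mean TPM, 69 of 79 neighbouring pairs had overlapping ranges.

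**Figure D1:**
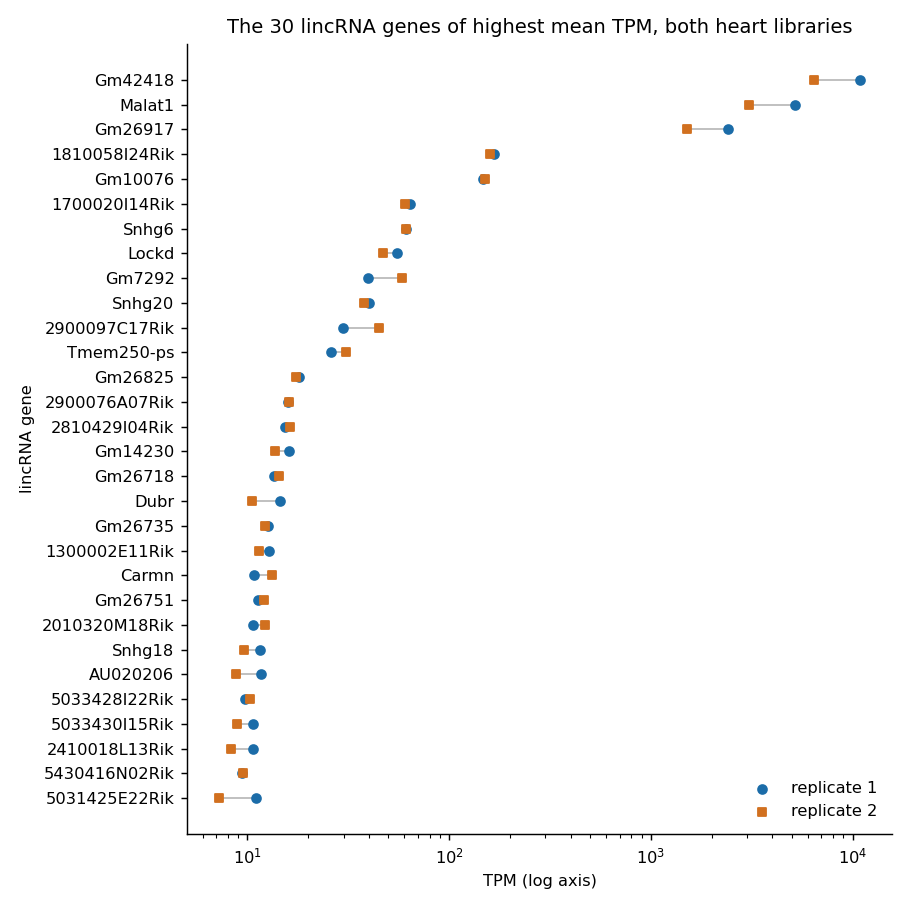
TPM (log axis) of the 30 lincRNA genes with the highest mean, in replicate 1 (circles) and replicate 2 (squares). Gm42418, Malat1 and Gm26917 stand above 1000 TPM in both libraries and are higher in replicate 1, whereas 1810058I24Rik, at 166.7 and 160.3 TPM, leads the rest with nearly equal values.

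The top of the order was held by ribosomal DNA sequence. Gm42418 (ENSMUSG00000098178), at chr17:39846958-39848788 on the plus strand of GRCm38, had 10936 TPM in replicate 1 and 6460 TPM in replicate 2. RefSeq lists this locus as Rn18s-rs5, a ribosomal RNA pseudogene, although M21 types it as lincRNA. Its neighbour Gm26917 (chr17:39843013-39846341) had 2407 and 1513 TPM. Together the 2 genes held 87.0% and 84.7% of the reads of all 80 genes, and Malat1 held 8.09% and 7.40%. The 80 genes held 2.47% and 1.47% of the reads in mouse genes, but without the ribosomal DNA genes and Malat1 the share was 0.121% and 0.116%.

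Malat1, an abundant nuclear RNA of the speckles where splicing factors gather, had 5180 TPM in replicate 1 and 3067 TPM in replicate 2 (mean 4124 ± 1494, SD, n = 2). This value rested on a short transcript model. Malat1-203 has 485 bases in 2 exons, starts 1 base inside the full-length 6983-base Malat1-201, and lies wholly within it (chr19:5801916-5802671, minus strand). It was given 56359 and 23635 reads, or 98.8% and 99.1% of the gene's TPM, and Malat1-201 was given 12396 and 3855 reads. With all reads set on the 6983-base transcript the level would be 350 and 198 TPM (mean 274 TPM), 15.0 times lower than deposited. Only the junction of its exons, over a 271-base intron, is absent from Malat1-201, and it is shown here with the last 20 bases of exon 1 in capitals and the first bases of exon 2 in lower case.
Malat1-203 junction: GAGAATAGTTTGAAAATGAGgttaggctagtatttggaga

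Reads of the Malat1 locus were also divided with a gene on the other strand. Gm37376 (chr19:5801941-5802393, plus strand), of type TEC in M21, a class for transcripts still awaiting experimental support, was listed with 24610 and 9726 reads. Added to Malat1, these gave exactly 93383 and 37216 reads, so that Gm37376 took 26.4% and 26.1% of the locus. A sum that is whole in both libraries is what dividing reads between both strands gives.

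The same arithmetic held for other genes on the list. The counts of 46 genes were whole in both libraries within 0.02 reads, and those of 34 were fractional. Of the 34, 26 overlapped a gene on the opposite strand, against 7 of the 46. For 14 of the 34, the counts of the lincRNA and of 1 overlapping opposite-strand gene summed to whole reads in both libraries, within the same 0.02 reads. In 10 of these 14 the partner was protein-coding.

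Gm26735 (chr13:28943048-28951671, plus strand), which overlaps Sox4, the gene of a transcription factor of outflow tract development, is an example. It had 920.3 and 631.9 reads beside 4490 and 3154 for Sox4, and the sums were 5410 and 3786. The lincRNA was thereby listed at 12.7 and 12.3 TPM, with 17.01% and 16.7% of the pair's reads. Gm26718, at 13.6 and 14.3 TPM, and Pgam5, a mitochondrial phosphatase gene, shared 2659 and 2202 reads, of which the lincRNA took 18.7% and 16.7%. Gm26751 and Nynrin shared 2994 and 3258 reads, and here the lincRNA's part was 44.8% in replicate 1 and 30.8% in replicate 2.

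**Figure D2:**
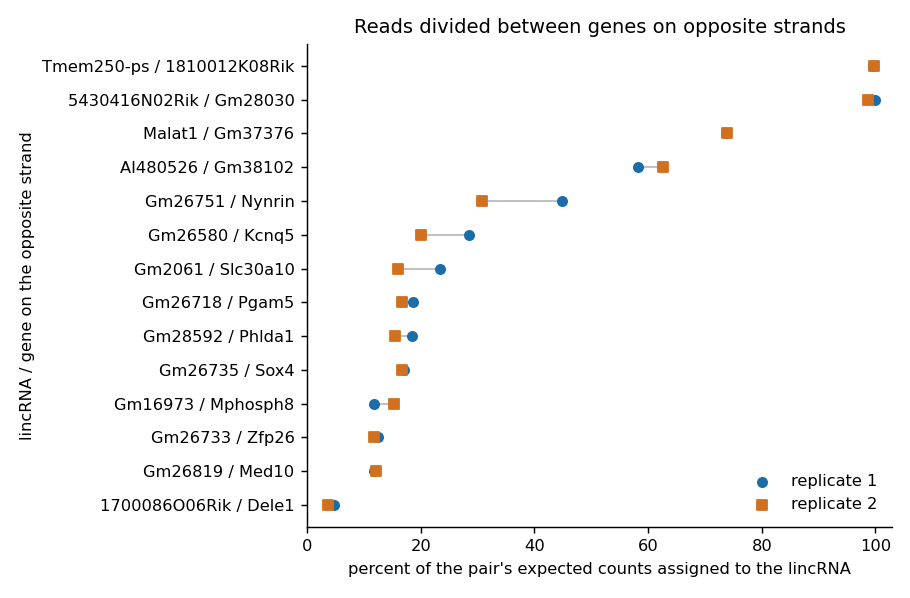
Percent of each pair's expected counts assigned to the lincRNA in replicate 1 (circles) and replicate 2 (squares), for the 14 lincRNA genes whose counts sum to whole reads with 1 gene on the opposite strand. Malat1 held 73.6% and 73.9% of its pair, and the lincRNAs paired with protein-coding genes held between 3.71% (1700086O06Rik with Dele1, replicate 2) and 44.8% (Gm26751 with Nynrin, replicate 1).

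Shared sequence was measured directly in the M21 transcripts. Of the 80 genes, 18 had more than 50% of the bases of their longest transcript in stretches of 31 or more that a transcript of another gene also holds, on either strand, and 17 had none. With a single other gene, 16 passed 50%, 13 of them on the opposite strand and 3 on the same strand. In opposite orientation, Gm26718 was held to 100% by Pgam5, Gm26751 to 100% by Nynrin, Gm26699 to 99.9% by Luc7l2 and Gm26825 to 95.9% by Hspa8. The levels of all such genes are therefore uncertain. For Gm26825, listed at 17.9 and 17.5 TPM, the other gene was the abundant chaperone gene Hspa8 at 1878 and 1971 TPM.

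Copies on the same strand gave a further 3 cases. Gm10076, a single-exon gene of 384 bases (chr14:105681828-105682211), was listed at 147.6 and 150.5 TPM, the fifth highest. Of its bases, 99.2% are in transcripts of the ribosomal protein gene Rpl41 (1964 and 1861 TPM), and the counts of both summed to 21337 and 14303 whole reads. RefSeq lists Gm10076 as a pseudogene.

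The other such pair was 2900097C17Rik and Gm7292. RefSeq gives 2900097C17Rik (chr2:156388065-156392979, minus strand) the name Norad, a cytoplasmic RNA that binds Pumilio proteins, which repress mRNAs, at many copies of the same short element. It had 29.8 TPM in replicate 1 and 44.7 in replicate 2. Gm7292 (chr6:117716342-117718868) had 39.7 and 58.4 TPM, and its 2527-base transcript matched bases 19 to 2553 of 2900097C17Rik with 99.6% identity over 2525 aligned bases. Their counts summed to 3640 and 3802 whole reads. The files hold a 1149-base model of 2900097C17Rik, shorter than the 4915 bases of M21. The split of the summed reads between both genes is therefore uncertain.

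The element bound by Pumilio proteins, TGTANATA on the transcript strand, occurs 11 times in 2900097C17Rik (2.24 per 1000 bases) and 9 times in Gm7292. Over the longest M21 transcripts of all 80 genes it occurs 0.198 times per 1000 bases, and 28 genes have 1 or more. Neat1 came next with 4 in 20771 bases. One element and its counterpart in the copy are shown with TGTANATA in capitals, at bases 1829 to 1836 of 2900097C17Rik (chr2:156391136-156391159, minus strand, GRCm38) and bases 1802 to 1809 of Gm7292 (chr6:117718135-117718158, plus strand), because the bases around the element are identical in both genes.
2900097C17Rik: gtgtatacTGTATATAatggacaa
Gm7292: gtgtatacTGTATATAatggacaa

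Of the nuclear RNAs, Neat1, the scaffold of the paraspeckle, was low and its TPM and counts ran in opposite directions. It had 498.5 reads in replicate 1 and 253 in replicate 2, but 1.30 TPM in replicate 1 and 2.33 TPM in replicate 2. Scaled for depth, the counts were higher in replicate 1 by 0.52 on the log2 scale (95% counting interval 0.30 to 0.75). The long Neat1-201 (20771 bases), the form known to build paraspeckles, was given 59.3% of the gene's TPM in replicate 1 and 14.01% in replicate 2. The 3004-base Neat1-202, which lies wholly inside Neat1-201, was given 40.7% and 86.0%. Because of this overlap the split between both forms is uncertain. By reads, Neat1-201 was given 91.2% in replicate 1 and 53.7% in replicate 2. All 12 genes listed for paraspeckle proteins were detected in both libraries, with a median log2 ratio of -0.01. Nono, a core protein of this body, had 199.7 and 264.8 TPM, and its partner Sfpq had 58.7 and 43.7 TPM.

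The length of the assigned transcript moved the level of other genes too. There were 41 genes with 1 transcript and 39 with 2 or more, and in 34 of the 39 the same transcript led in both libraries. Against a level set on the longest transcript in the tables, 13 genes were more than 1.5 times higher as deposited and 6 more than 3 times. These included 2810429I04Rik, at 15.8 TPM as deposited and 2.30 TPM on its 4769-base transcript. For 1810058I24Rik the values were 163.5 and 52.6 TPM, and for Snhg20 39.0 and 11.0 TPM. Set on the longest transcript, the median of the 80 genes fell from 6.73 to 4.61 TPM, and the order at the top changed, with Gm26917 (1761 TPM) above Malat1 (274 TPM) and Gm10076 (149.0 TPM) above 1810058I24Rik. Models that are longer in M21 than in the tables, such as those of 2900097C17Rik and Lockd, were not set on the M21 length.

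**Figure D3:**
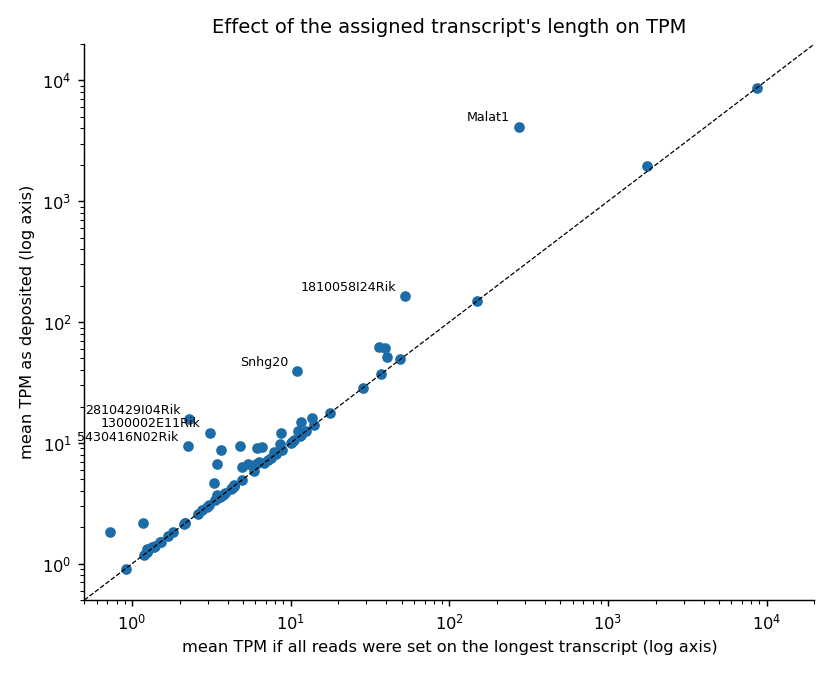
Mean TPM of both libraries as deposited (vertical, log axis) against the value if all reads of the gene were set on its longest transcript in the tables (horizontal, log axis), 1 point per lincRNA gene, with equality dashed. Malat1 lies farthest above the line, at 4124 against 274 TPM, and the 6 named genes are those more than 3 times above it.

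Among genes with whole counts, 1810058I24Rik was next after Gm26917, with 166.7 TPM in replicate 1 and 160.3 in replicate 2. It encodes a small mitochondrial protein, and RefSeq lists it as protein-coding. Of the 52 genes matched to RefSeq by name and position, 45 are lncRNA there, 4 are protein-coding (1810058I24Rik, Tmem250-ps, D930016D06Rik as Thoc2l, and Gm38399, matched to Nav1), and 3 are pseudogenes. Tmem250-ps had 25.96 and 30.8 TPM, and D930016D06Rik had 3.48 and 3.40 TPM.

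1700020I14Rik, named Oip5os1 in RefSeq and also known as Cyrano, followed with 63.7 TPM in replicate 1 and 60.7 in replicate 2 (62.2 ± 2.18, SD, n = 2). Cyrano carries a nearly complete site for miR-7 and is known to bring about the decay of that miRNA. A local alignment of the reverse complement of miR-7a-5p to the longest transcript of each of the 80 genes scored highest for this gene, with 22 of the 23 miRNA bases matched (next, Trp53cor1 with 19). The site lies at bases 2935 to 2959 of 1700020I14Rik-202 (chr2:119602137-119602161, plus strand, GRCm38), and it is shown with matched bases in capitals beside the RefSeq miRNA, whose seed is in capitals. The 8300-base transcript that holds the site was given 47.3% and 52.4% of the gene's TPM and 7050 and 5249 of its reads.
miR-7a-5p: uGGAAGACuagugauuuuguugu
1700020I14Rik site: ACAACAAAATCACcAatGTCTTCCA

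Hosts of small RNAs made up 9 of the 80 genes (11.25%). Of 2051 autosomal lincRNA genes under the count minimum, 44 (2.15%) hold a miRNA, snoRNA or scaRNA gene on their strand, and of the protein-coding genes 6.99% do. Spliced host RNAs release snoRNAs, which guide chemical changes of ribosomal RNA, from their introns. Snhg6, host of Snord87, had 61.4 TPM in replicate 1 and 61.1 in replicate 2, and Snhg20 had 40.0 and 38.0 TPM. The levels were lower for Snhg18, host of Snord123, at 11.5 and 9.58 TPM, and for Snhg12, whose introns hold Snora16a, Snora44, Snora61 and Snord99, at 10.3 and 7.97 TPM.

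Hosts of miRNAs other than Snhg20 were low to moderate in level. Mir17hg (chr14:115042879-115046727, plus strand), precursor of the cluster of growth-promoting miRNAs known as oncomiR-1, had 3.58 TPM in replicate 1 and 1.94 in replicate 2. 6720427I07Rik (chr13:48532905-48546500, minus strand), which spans let-7a-1, let-7f-1 and let-7d, had 2.66 and 3.47 TPM. Mir670hg, with Mir670 and Mir129-2, had 7.98 and 8.94 TPM, and 2900076A07Rik, with Mir1839, had 15.98 and 16.2 TPM. 1300002E11Rik, which holds no small RNA gene, had 12.9 and 11.4 TPM. Host reads do not measure the mature miRNAs, which are shorter than the RNA used for these libraries.

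RefSeq (GRCm38.p6) gave 24 mature miRNAs inside the listed genes, with 19 distinct seeds. The main arms of the clusters at Mir17hg and 6720427I07Rik are shown because they fall into few seed groups. The seed, bases 2 to 8, is in capitals. miR-17-5p and miR-20a-5p share a seed, miR-19a-3p and miR-19b-3p share another, and all 3 let-7 arms share one of their own.
miR-17-5p: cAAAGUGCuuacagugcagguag
miR-20a-5p: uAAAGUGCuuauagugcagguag
miR-18a-5p: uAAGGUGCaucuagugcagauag
miR-19a-3p: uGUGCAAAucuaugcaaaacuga
miR-19b-3p: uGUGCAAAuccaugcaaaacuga
miR-92a-3p: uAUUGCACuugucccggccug
let-7a-5p: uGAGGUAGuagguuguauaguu
let-7f-5p: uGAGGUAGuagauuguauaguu
let-7d-5p: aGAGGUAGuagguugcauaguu

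Carmn, an RNA of smooth muscle and cardiac cells that is on the list of miRNA hosts, had 10.8 and 13.2 TPM. M21 places no small RNA gene inside Carmn on its strand, so Carmn is not among the 9 hosts counted by position. Its neighbour in the same region, Bvht, known for its part in cardiac commitment in cell culture, fell below the count minimum with 121 and 70 reads. 5033428I22Rik, which RefSeq names Hdnr and which is also known as Handsdown, had 9.71 and 10.3 TPM. It lies 7485 bases from Hand2, a transcription factor gene needed for right ventricle growth, which had 13.7 and 13.3 TPM. Lockd, 3579 bases from the cell-cycle inhibitor gene Cdkn1b, had 55.5 and 47.1 TPM against 10.3 and 10.9 for Cdkn1b, although its level was set on a 441-base model that has 5662 bases in M21. Trp53cor1, known as a p53 target beside Cdkn1a, had 1.26 and 1.77 TPM, below the 31.3 and 31.3 TPM of Cdkn1a. Dubr, an RNA studied in muscle differentiation, had 14.6 and 10.5 TPM, and Redrum, described in red cell development, had 5.17 and 3.59 TPM.

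Position was taken from M21. The nearest protein-coding gene overlapped the lincRNA gene in 26 of 80 cases (21 on the opposite strand and 5 on the same), so the term intergenic does not hold for these genes. Of the rest, 21 were head to head with their neighbour, meaning on opposite strands with starts facing apart, 11 were tail to tail, and 22 were on the same strand, of which 14 had the neighbour downstream. The median gap was 1910 bases, against 25519 for lincRNA genes under the minimum and 2479.5 for the protein-coding genes. Head-to-head pairs within 5000 bases made up 17.5% of the 80, 9.12% of the lincRNA genes under the minimum and 9.57% of the protein-coding genes. The count minimum itself chose expressed loci, so these shares are a description.

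Of the 14 lincRNA genes head to head within 5000 bases, 11 lay within 1000 and the median distance between starts was 160 bases. The nearest was 1110019D14Rik, 8 bases from 2610001J05Rik, with 6.67 and 5.90 TPM against 69.0 and 76.7 TPM for that gene. Gm16001 and Ogfod2 start 33 bases apart, and the lincRNA's 8.16 and 5.31 TPM did not stand apart from the 7.44 and 9.17 TPM of Ogfod2. Snhg18 and Sema5a, a guidance gene of the semaphorins, start 148 bases apart. Here the lincRNA was the higher, at 11.5 and 9.58 TPM against 2.07 and 1.93 TPM.

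RefSeq promoter windows (300 bases, from 250 before to 50 after the start, GRCm38.p6) were matched for 35 of the listed genes of RefSeq type lncRNA, with 39 windows. The median number of CG dinucleotides was 13 in these windows, 7 over all 32851 windows and 13 over the 21262 of protein-coding genes. The windows of 10 of the head-to-head genes had a median of 27.5. TATAAA, searched on the gene's strand, was in 12.8% of the 39 windows, 8.32% of all and 8.26% of those of protein-coding genes. A window of each of the named pairs is shown on the lincRNA's strand with the bases between both annotated starts in capitals, at chr6:13871319-13871618 (plus strand), chr5:124112197-124112496 (minus strand) and chr15:32244613-32244912 (minus strand). They hold 11, 34 and 31 CG dinucleotides, and show how little sequence separates the starts.
1110019D14Rik: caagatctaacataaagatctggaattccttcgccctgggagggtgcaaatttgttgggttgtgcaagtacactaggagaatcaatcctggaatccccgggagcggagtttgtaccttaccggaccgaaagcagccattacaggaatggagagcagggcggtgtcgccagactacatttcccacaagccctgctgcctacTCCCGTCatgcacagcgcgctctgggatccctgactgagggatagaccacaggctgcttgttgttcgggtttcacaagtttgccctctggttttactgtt
Gm16001: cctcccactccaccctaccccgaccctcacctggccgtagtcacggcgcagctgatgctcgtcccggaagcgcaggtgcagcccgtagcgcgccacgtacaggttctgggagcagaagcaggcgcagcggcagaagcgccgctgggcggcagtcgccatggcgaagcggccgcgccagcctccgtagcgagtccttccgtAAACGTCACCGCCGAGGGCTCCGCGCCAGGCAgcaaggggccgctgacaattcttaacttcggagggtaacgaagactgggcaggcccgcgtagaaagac
Snhg18: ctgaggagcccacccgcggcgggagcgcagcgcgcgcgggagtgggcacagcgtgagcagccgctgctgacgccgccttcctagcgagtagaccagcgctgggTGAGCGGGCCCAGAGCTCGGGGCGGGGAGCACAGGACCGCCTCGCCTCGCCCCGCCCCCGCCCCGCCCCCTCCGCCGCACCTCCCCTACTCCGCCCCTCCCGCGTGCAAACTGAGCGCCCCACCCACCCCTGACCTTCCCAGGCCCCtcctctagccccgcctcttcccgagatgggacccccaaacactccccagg

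The other head-to-head pairs within 300 bases joined 2010320M18Rik to Pik3r2 (102 bases, 10.7 and 12.2 against 15.8 and 17.1 TPM) and Gm14230 to Tgif2 (115 bases, 16.04 and 13.7 against 31.4 and 33.0 TPM). Gm5113 was joined to Zfp146 (125 bases, 4.37 and 4 against 7.10 and 4.55 TPM) and C030037D09Rik to the RNA-binding protein gene Msi2 (132 bases, 8.62 and 8.74 against 13.5 and 11.3 TPM). 5031425E22Rik was joined to the chromatin gene Kmt2e (172 bases, 11.1 and 7.26 against 18.8 and 17.3 TPM), 5033430I15Rik to Atxn1 (245 bases) and Fam120aos to Fam120a (270 bases). In the 14 pairs the lincRNA was above its neighbour in 3 (Snhg18, 5033430I15Rik and AI480526), below in 9 and not apart in 2. The median was 6.69 TPM for the lincRNAs and 10.7 TPM for their neighbours.

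Over all 80 genes, 27 lay above their nearest protein-coding gene, 46 below and 7 not apart. A gene was counted as above or below when both libraries gave the same sign and the mean log2 ratio of TPM exceeded the difference between the libraries. The neighbours of 4 of the 27 (Gm42418, Gm26917, Dubr and 3222401L13Rik) were listed at 0 in both libraries, so no fold is given for them. That of Gm26804 (7.29 and 6.27 TPM) was listed at 0.12 and 0 TPM, and with no range between the ratios this gene was counted as above because it was so in each library. Among the 46 genes with whole counts, 17 were above, 27 below and 2 not apart. Of the 21 overlapping a gene on the opposite strand, 2 were above (Gm26804, and Snhg6 over Mcmdc2 at 1.5 and 0.63 TPM), 15 below and 4 not apart.

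The neighbours were often well expressed. In 82.5% of cases the neighbour was at 1 TPM or more in both libraries, and the median neighbour had 11.99 TPM, against 67.1% and 5.79 TPM for lincRNA genes under the minimum. For the protein-coding genes these values were 72.6% and 9.17 TPM. The neighbour overlapped on the opposite strand in 26.25% of the 80, 11.8% of the lincRNA genes under the minimum and 20.5% of the protein-coding genes. Reads divided with such a neighbour count toward the minimum, so the neighbours' levels are a description. The part of divided reads in them was not tested. The rank correlation of the lincRNA's level with its neighbour's was -0.01 across the 80 genes (Spearman, given as a description, since 77 distinct neighbours came from the same 2 libraries). The most abundant neighbours were H3f3a, a replacement histone gene (1370 and 1374 TPM, beside 4.93 and 2.52 for Gm17275), and the glycolysis gene Gpi1 (578.6 and 570.1 TPM, beside 1.55 and 1.20 for Gm26762). Next came Gdi2 (179.6 and 192.7 TPM) by 2810429I04Rik (15.3 and 16.2), Sec31a (113.8 and 140.9) by 5430416N02Rik (9.37 and 9.49) and Lsm8 (95.9 and 108.1) by Gm26809 (7.33 and 7.03). Med10 (83.6 and 81.0 TPM) by Gm26819 (1.68 and 1.70) and Tomm7 (71.2 and 72.9) by 2700038G22Rik (9.05 and 5.98) followed, with 2610001J05Rik between them. Each of these 8 neighbours was above its lincRNA.

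**Figure D4:**
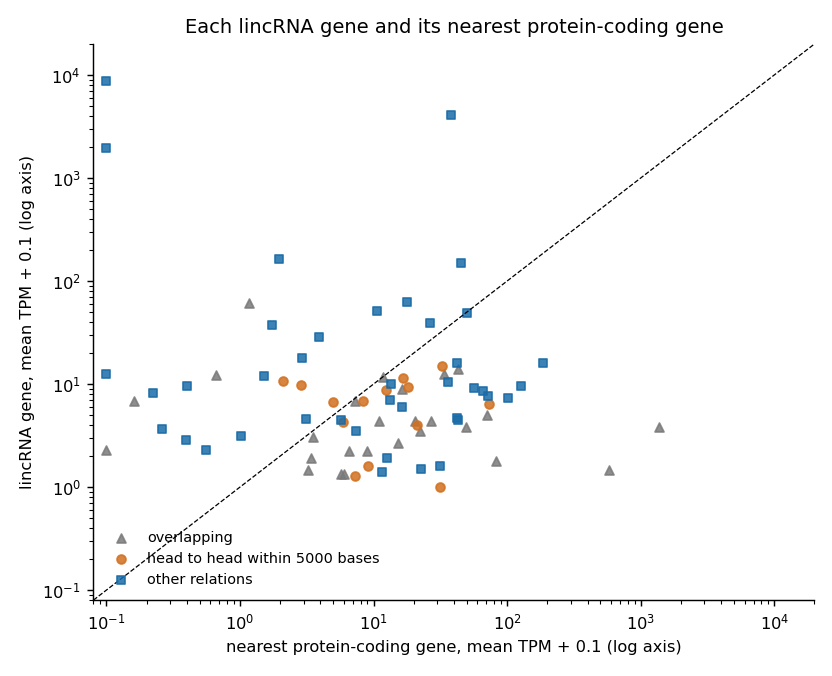
Mean TPM + 0.1 of each of the 80 lincRNA genes (vertical, log axis) against that of its nearest protein-coding gene (horizontal, log axis), with equality dashed. Most points lie below the line, with 46 genes below and 27 above by the rule given in the text, and the points at the left edge have a neighbour listed at 0.

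The gene models of the 80 were longer than those of lincRNA genes under the minimum, with a median longest transcript of 2524 bases against 1009. They were shorter than the 3527 bases of the protein-coding genes. Counts are not corrected for transcript length, so the count minimum itself favours longer models, and these lengths are a description. The median of the largest number of exons was 3 for both lincRNA groups and 10 for the protein-coding genes. Single-exon genes made up 12.5% of the 80, 5.95% of the lincRNA genes under the minimum and 1.57% of the protein-coding genes.

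Between the libraries, 3 of the 80 genes (3.75%) were called higher in replicate 1 and 0 in replicate 2, by an exact two-sided binomial test of the counts with Benjamini-Hochberg adjustment over 16621 genes and a fold of at least 2. Among all genes tested, 3.32% were called higher in replicate 1 and 1.37% in replicate 2. In either direction the share was 4.69%. Among the 12084 genes with the same count minimum, the shares were 0.422% and 0.24%, and among the autosomal protein-coding genes of that set 0.296% and 0.251%. The test compares these libraries, not conditions. With no fold minimum, 28 of the 80 (35.0%) were higher in replicate 1 and 7 (8.75%) in replicate 2, against 19.4% and 26.5% of the genes with the same minimum.

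All 3 called genes overlap a protein-coding gene on the opposite strand, as 21 of the 80 do. Gm26699, overlapping the splicing factor gene Luc7l2, had 377.5 and 113.9 reads, a log2 ratio of 1.27 (95% counting interval 0.97 to 1.59, exact binomial test, adjusted p = 2.6e-17). Gm2061, by the manganese transporter gene Slc30a10, had 184.3 and 64.1 reads (1.06, 0.652 to 1.504, exact adjusted p = 8.9e-07). Gm17275 had 344.9 and 124.3 reads (1.02, 0.72 to 1.33, exact adjusted p = 2.4e-11). With the reads of each lincRNA and its partner summed, the log2 ratios were 0.59, 0.52 and 0.06 and none was called. The partners alone were at 0.50, 0.39 and 0.05 and set most of each sum. Whether the calls came from divided reads was therefore not tested by these sums. None of the 46 genes with whole counts was called. Of all genes with the same count minimum, only 0.422% were called higher in replicate 1 and 0.24% in replicate 2. A count of 0 among 46 is near those shares and decides nothing about divided reads. With no fold minimum, 16 of the 46 genes were higher in replicate 1 and 2 in replicate 2.

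The lists of known noncoding genes hold few of the 80. Of 20 names listed as snoRNA hosts, 14 were in the tables and 13 were tested, with a median log2 ratio of 0.30 and none past the fold of 2. Of 40 names on the list of heart and mesoderm lncRNAs, 23 were in the tables and 16 were tested, with a median of 0.28 and 1 called, Fendrr, higher in replicate 1. Of 10 names on the list of nuclear architecture RNAs, 9 were tested, with a median of 0.52 and 1 called, Miat, on 19 and 3 reads. That list also holds the cytoplasmic 2900097C17Rik and the ribosomal DNA genes Gm42418 and Gm26917, so its median is not one of nuclear RNAs alone. Of 15 names listed as miRNA hosts 5 were tested, with a median of 0.05 and none past the fold of 2.

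Below the fold of 2, the largest ratios with whole counts were those of B830012L14Rik, 95256 bases from the imprinted Rtl1 (359 and 132 reads, log2 ratio 0.99), and Mir17hg (351 and 134 reads, 0.93). Malat1 was at 0.87 (0.85 to 0.89), Gm42418 at 0.81 (0.80 to 0.82) and Gm26917 at 0.70 (0.69 to 0.72), intervals that cover counting error only. At the other end, Gm26883, which lies opposite Tshz2, was at -0.79 (138.0 and 174.1 reads). Tshz2 transcripts hold 99.6% of the bases of Gm26883 in opposite orientation. Tshz2 itself was at 0.73, and with the reads of both summed the ratio was 0.20, so the direction for Gm26883 is uncertain. 2900097C17Rik was at -0.54 and Gm7292 at -0.51, and with their reads summed the ratio was -0.52.

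The median log2 ratio of the 80 genes was 0.16, with quartiles of -0.04 and 0.44. That of the protein-coding genes with the same minimum was -0.02, with quartiles of -0.16 and 0.11, and that of all genes tested was 0.0002. By value, 55 of the 80 were higher in replicate 1 and 25 in replicate 2, and 72.5% lay within 0.5 of 0, against 94.4% of the protein-coding genes. These sets were not matched on counts beyond the minimum, so the shares also carry unlike counting error. The 46 genes with whole counts had the same median of 0.16. Other gene types with the same minimum had medians of 0.16 (65 processed transcripts), 0.08 (70 antisense genes) and 0.10 (129 processed pseudogenes). The 10 single-exon genes had a median of -0.04 and the 70 with several exons one of 0.16. The 10 include 2900097C17Rik and Gm7292, which share reads. Among the protein-coding genes the order was the reverse, at 0.04 for 175 single-exon genes and -0.02 for 10969 with several exons. Some cell markers were also higher in replicate 1. The median log2 ratio was 2.44 for the liver markers (7 of 7 called), 1.45 for the epithelium markers (2 of 4 tested called) and 0.29 for the red cell markers (summed 38832 and 32310 TPM, none past the fold of 2), against -0.03 for the neuron markers and 0.001 for those of heart muscle. The part of these cells in the lincRNA differences was not tested.

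**Figure D5:**
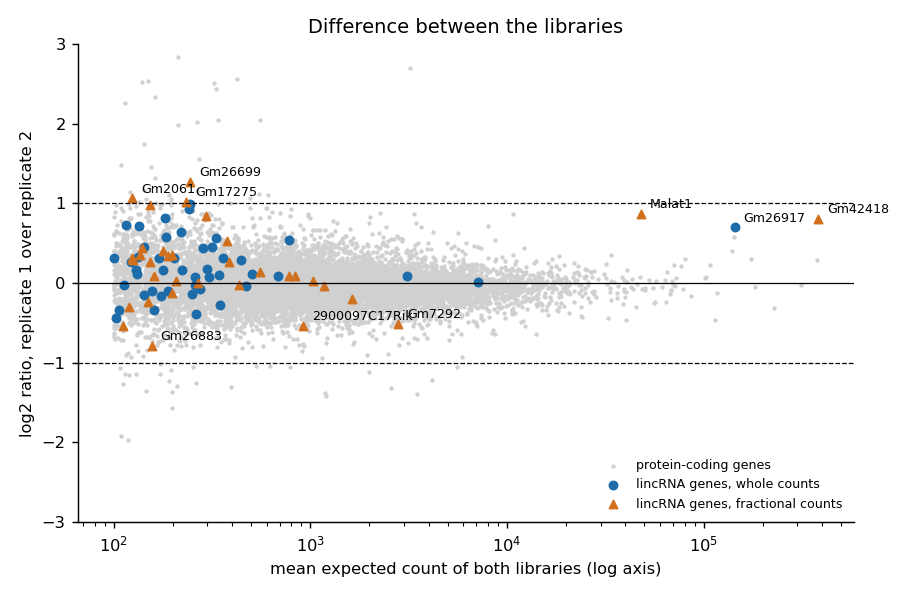
Log2 ratio of replicate 1 over replicate 2 against the mean expected count (log axis), for protein-coding genes (grey), lincRNA genes with whole counts (circles) and with fractional counts (triangles); dashed lines mark a fold of 2, and 2 protein-coding genes beyond 3 are not drawn. The 3 lincRNA genes above the upper line (Gm26699, Gm2061 and Gm17275) have fractional counts, and no lincRNA gene lies below the lower line.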

How the data were processed

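Total RNA sequencing of 2 embryonic heart libraries was used from the deposited gene and transcript tables. The authors' tables give expected counts, which are model estimates left without normalization, and TPM, which the authors scaled by transcript length and by the total over all rows, per the file headers. IsoPct, as deposited by the authors, is each transcript's percent of its gene's TPM. The deposited README names mm10 and annotation M4. For the tool, its version and the strand setting, the entry is: not given in the sources used here. The bounds of the TPM interval are listed as a signal in the deposited files, and their level is not given there. Genes were matched by identifier to GENCODE M21 (GRCm38) for type, symbol and position. The lincRNA genes and all gene lists were chosen with earlier results of these data known.

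An exact binomial test (two-sided) compared the rounded expected counts of both libraries, with scaling from edgeR 4.0.16 (TMM) in R 4.3.3 and Benjamini-Hochberg adjustment over 16621 genes with a summed count of 20 or more. Calls needed an adjusted p below 0.05 and a fold of at least 2, computed after adding 0.5 to both counts. DESeq2 1.42.0 gave an alternative scaling. The test was checked on simulated data. Errors are SDs over n = 2 libraries, and counting intervals are at 95% and cover counting error only. With 1 sample in each arm of the library comparison, no spread within an arm could be estimated. Sequences came from RefSeq GRCm38.p6 and GENCODE M21 transcripts, aligned with Biopython 1.88 in Python 3.11.15 (pandas 2.3.3, numpy 2.4.6, scipy 1.17.1).

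Genes named with values were the 20 of highest mean TPM, those called, those on a list, the 8 head-to-head genes nearest to their neighbour, the 8 with the most abundant neighbours and the 3 on each side of the count minimum. The others were chosen after their values were seen, for shared reads, transcript length, small RNAs or RefSeq type.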

Additional observations from a re-analysis of the deposited data

How the results depend on the processing

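At a fold of 1.5 in place of 2, 14 lincRNA genes were called higher in replicate 1 and 1 in replicate 2, against 3 and 0. The share of all genes called at a fold of 1.5 was not computed, so these counts say nothing particular to lincRNA genes. The following alternatives were chosen after seeing the data. Kept to the 46 genes with whole counts, or with the reads of each opposite-strand protein-coding neighbour added, 0 were called in replicate 1. For the 3 genes called at a fold of 2, the neighbour's reads set most of the sum, so adding them is no test of divided reads. Nor is a count of 0 among the 46, since 0.422% of genes with the same count minimum were called higher in replicate 1. With whole counts alone, 17 genes were above their neighbour and 27 below, against 27 and 46, since fewer genes were counted. On the longest transcript the median level was 4.61 TPM, against 6.73. With 1 library alone it was 6.01 or 7.26 TPM. The posterior mean counts gave 2 calls, and the median log2 ratio lay between 0.08 and 0.17 over the alternatives run. A ratio of expected counts in place of TPM gave 22 genes above and 55 below their neighbour. A minimum of 50 or 200 reads gave 154 or 44 genes, and 67 passed in each library. No paired analysis was possible because there is a single group of 2 libraries. Depth limits genes near the minimum: a mean of 100 reads leaves wide counting intervals, as for Gm2061.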

Other observations

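Several known noncoding genes of the heart lie outside the 80 because M21 gives them another type or they miss the count minimum. Gas5, a snoRNA host, had 270.4 TPM in replicate 1 and 264.1 in replicate 2. Hand2os1, which starts beside Hand2, had 104.7 and 94.9 TPM. Tug1 had 85.3 and 111.3 TPM. Bvht had 8.71 and 7.45 TPM. Fendrr, needed for lateral mesoderm development, had 2.70 and 1.03 TPM.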
